A study of Mus musculus with 28 samples.

Results

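The genes described here are those of lysosomal hydrolases, their soluble cofactors and the proteins of the lysosomal membrane, with the transcription factor gene Tfeb. They were taken from a list of 35 genes, and each was represented by the probe set that named it and no other gene. Such a probe set existed for 33 of the 35, 1 for each gene, out of 18820 genes measured in this way. Ctsb and Sgsh had no probe set that named them alone and were not analysed here.

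The samples were livers of 28 male C57BL/6J mice, with 1 array hybridised for each mouse. All mice ate an intermittent diet when sampled, which alternated weekly between free access to moderate-fat food, with 25% of its energy from fat, and a ration set to 60% of what control mice ate in energy. Mice were 9 weeks old when the diets began and were housed individually from then on. The lifelong group held 6 mice aged 6 months, 7 aged 12 months and 7 aged 24 months. In the switched group (n = 8), mice ate the moderate-fat diet until 12 months and the intermittent diet from then to 24 months. Before sampling, mice went 4 h without food, received a gavage of carboxymethyl cellulose and went a further 6 h without food. Which week of the diet cycle the mice were in at sampling is not given. In the lifelong groups, age and time on the diet rose together, and the switched group differed from the lifelong group at the same age in diet history. Control, calorie-restricted and continuously moderate-fat mice were not analysed here.

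Lysosomes are acidic organelles in which hydrolases degrade material delivered by endocytosis, phagocytosis and autophagy. Most hydrolases are made as precursors and sorted to the lysosome through mannose 6-phosphate receptors, while membrane glycoproteins line its limiting membrane and carriers export the products. In the liver, hepatocytes use lysosomes for the turnover of lipid droplets, glycogen and organelles, and Kupffer cells, the resident macrophages, are rich in them. Tfeb encodes a basic helix-loop-helix factor known to bind a palindromic E-box in promoters of lysosomal genes, and its activity is controlled largely by phosphorylation and location in the cell.

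The deposited values were log2 expression values, so that a difference of 1 is a doubling. The median level of an array lay between 5.23 and 5.31, and correlations between arrays over all probe sets lay between 0.978 and 0.992. Hepatocyte markers averaged between 12.80 and 13.05 in each liver, and the group means of all 9 lay above the array median. Of 14 macrophage markers, Marco, a scavenger receptor, was the 1 whose group mean lay below the array median at 6 and 12 months, and none did in the groups at 24 months. The arrays belonged to 3 array batches by their names, and each batch held all 4 groups.

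From 6 to 24 months on the lifelong diet, 11 of the 33 genes rose and none fell at an adjusted p under 0.05 in limma. Among all probe sets, 4.73% passed in the same comparison, 2.10% higher and 2.63% lower. Among 1-gene probe sets at least as bright as the dimmest of the 33, 4.72% rose and 6.07% fell. The list was chosen with earlier results of these data known, so setting its count beside these shares is not an independent test. The 11 were Ctsd, Ctsl, Ctsz and Ctsa among the proteases, Neu1 and Gaa among the enzymes of sugar chains, Pla2g15, Asah1 and Smpd1 among the enzymes of lipids, Npc2 among the soluble carriers, and Lamp1 among the membrane proteins. The rises ran from 0.20 for Lamp1 to 0.67 for Pla2g15, or 1.15-fold to 1.59-fold. The median difference over the 33 was 0.22, against -0.02 over all probe sets, and 30 of the 33 differences lay above 0. These are bulk samples, in which a change in the number of cells of a type and a change in RNA per cell cannot be told apart. Each p-value measures the spread between mice.

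**Figure D1:**
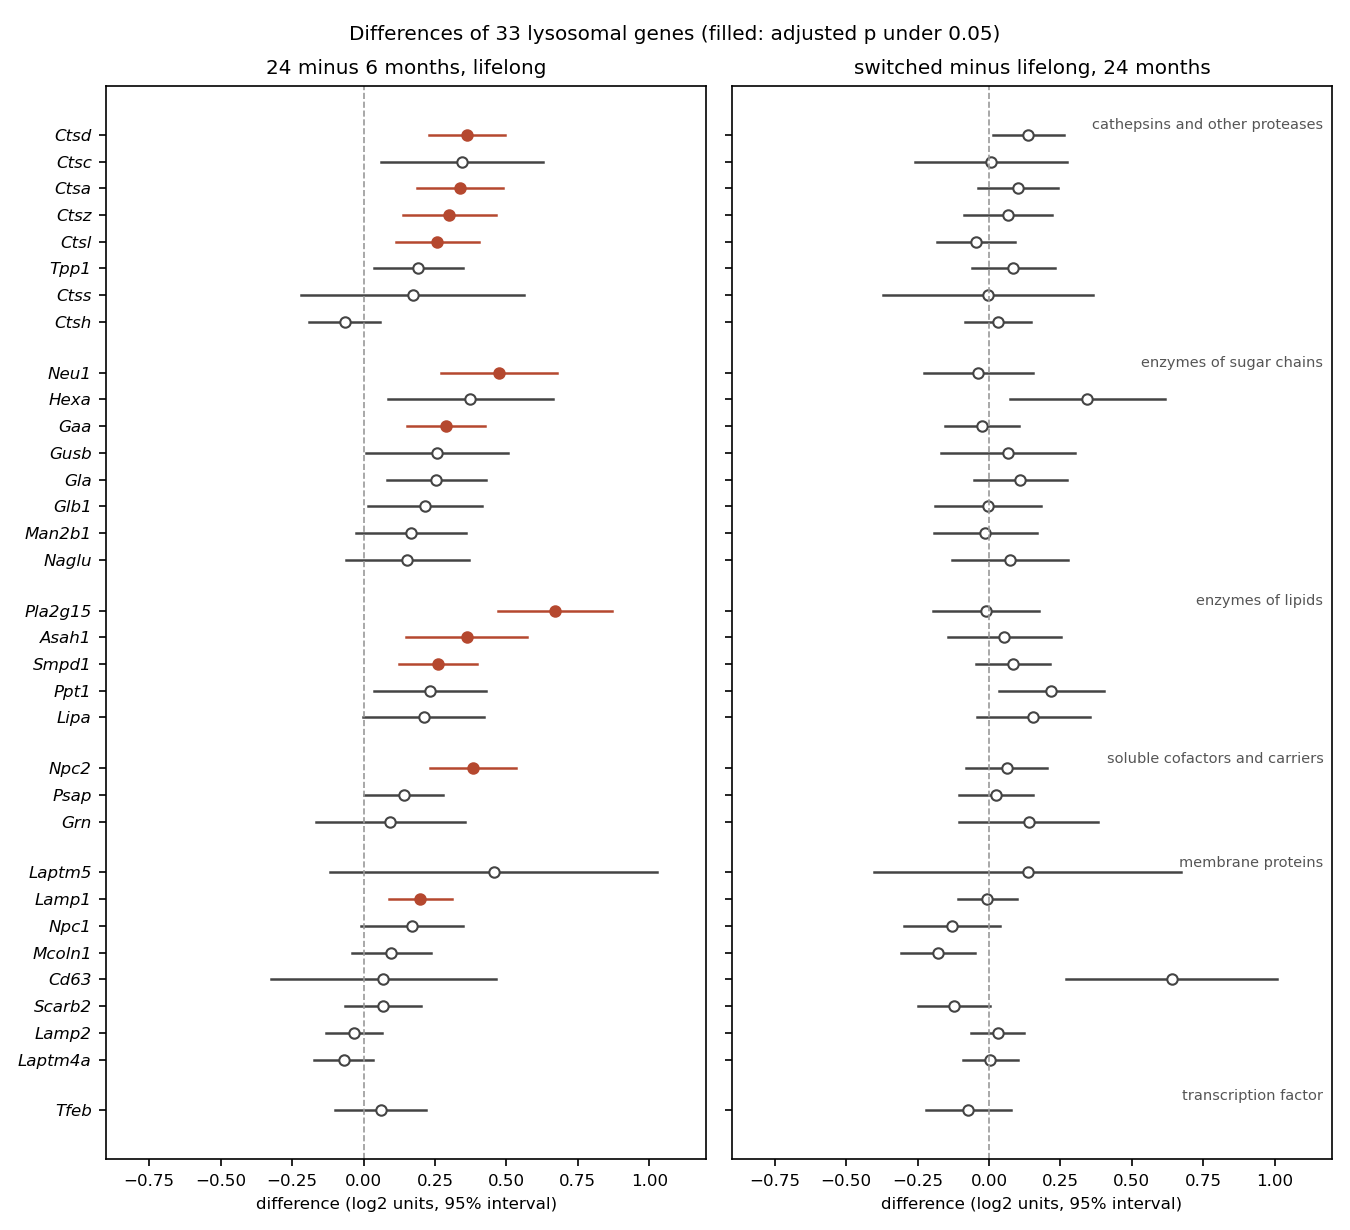
Differences in log2 level for the 33 genes, by role, with 95% intervals: 24 minus 6 months on the lifelong diet at left, switched minus lifelong at 24 months at right. Filled points passed at an adjusted p under 0.05; 11 did at left, all above 0, and 0 did at right.

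Promoter windows were searched for the palindromic E-box that the product of Tfeb is known to bind. Whether genes known to carry it were favoured when the list was chosen is not given. The shares below are therefore not an independent test. Windows from 250 bases before to 50 bases after the start site, from RefSeq on GRCm38.p6, were given for 30 of the 33 genes, in 34 entries; Npc1, Ctsh and Asah1 had none. The palindrome CACGTG was present in 9 of the 34 windows (26.5%), against 7.15% of all 32851 windows. The longer palindrome TCACGTGA, which contains it, was present in 4 (11.8%), against 0.974% of all. Extended by a G before and a C after, it was present in 0, against 0.326% of all. Each motif reads the same on both strands. The 5 windows printed here are those with the longer palindrome and the one with the most copies of the shorter. Each is written 5′ to 3′ on the strand of its gene, with the palindrome in capitals.
Ctsd, chr7:142387778-142388077, minus strand: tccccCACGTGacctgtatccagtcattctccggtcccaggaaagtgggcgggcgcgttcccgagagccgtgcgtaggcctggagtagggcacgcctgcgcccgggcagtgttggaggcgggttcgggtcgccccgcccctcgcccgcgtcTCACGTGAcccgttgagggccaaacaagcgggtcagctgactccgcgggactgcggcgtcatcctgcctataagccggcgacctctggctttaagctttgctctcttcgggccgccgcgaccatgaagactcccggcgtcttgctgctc
Ctsa, chr2:164833523-164833822, plus strand: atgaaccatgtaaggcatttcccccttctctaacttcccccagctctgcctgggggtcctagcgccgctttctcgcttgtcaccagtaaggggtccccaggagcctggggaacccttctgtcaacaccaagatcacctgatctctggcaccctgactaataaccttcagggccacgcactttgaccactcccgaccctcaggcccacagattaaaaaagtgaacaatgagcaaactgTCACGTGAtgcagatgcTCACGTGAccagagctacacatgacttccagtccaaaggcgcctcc
Gla, chrX:134600956-134601255, minus strand: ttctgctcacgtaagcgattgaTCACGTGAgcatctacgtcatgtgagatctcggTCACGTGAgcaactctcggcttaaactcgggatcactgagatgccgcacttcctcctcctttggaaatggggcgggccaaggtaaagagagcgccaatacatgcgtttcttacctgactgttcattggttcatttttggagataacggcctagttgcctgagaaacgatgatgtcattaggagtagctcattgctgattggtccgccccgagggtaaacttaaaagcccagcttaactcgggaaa
Lamp1, chr8:13158911-13159210, plus strand: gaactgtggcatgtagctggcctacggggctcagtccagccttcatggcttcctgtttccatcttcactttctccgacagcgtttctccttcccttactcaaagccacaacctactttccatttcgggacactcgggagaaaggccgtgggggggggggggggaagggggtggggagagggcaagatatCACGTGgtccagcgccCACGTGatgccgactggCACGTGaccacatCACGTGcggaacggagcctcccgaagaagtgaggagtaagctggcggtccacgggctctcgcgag
Mcoln1, chr8:3500269-3500568, plus strand: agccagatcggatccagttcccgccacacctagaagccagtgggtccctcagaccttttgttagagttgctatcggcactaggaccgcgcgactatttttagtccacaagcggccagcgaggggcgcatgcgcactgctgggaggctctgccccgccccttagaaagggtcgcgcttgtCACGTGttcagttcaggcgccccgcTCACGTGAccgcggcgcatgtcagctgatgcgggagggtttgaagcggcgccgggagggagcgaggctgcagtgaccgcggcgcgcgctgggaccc
In Ctsa, which had a second window without a match, the copies of CACGTG began 12 bases before and 5 bases after the start site. In Ctsd they began 245 and 98 bases before it, and in Gla 227 and 194 bases before it. Lamp1 had 4 copies, beginning 61, 45, 28 and 15 bases before the start site, and Mcoln1 had copies 71 and 45 bases before it. Among the 10 rising genes with a window, Ctsa, Ctsd, Ctsl, Gaa and Lamp1 held the shorter palindrome, 5 in all. Of the 20 others with a window, Gla, Glb1, Mcoln1 and Naglu held it, 4 in all. A match is a description of these letters only.

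Of the 8 proteases measured, 4 rose from 6 to 24 months and none fell. Ctsd encodes cathepsin D, the main aspartic protease of lysosomes, whose promoter with 2 copies of the palindrome is printed above. Levels are given in log2 units as the lowest and highest liver with the median. Ctsd ran from 10.75 to 10.88 (median 10.83) at 6 months, from 10.92 to 11.21 (median 11.01) at 12 months and from 11.05 to 11.32 (median 11.19) at 24 months, against 11.002 to 11.45 (median 11.34) in the switched group. Every lifelong liver at 24 months, and every one at 12 months, lay above every liver at 6 months. The difference from 6 to 24 months was 0.36 (SE 0.065, adjusted p = 0.00251, limma), higher in 7 of 7 livers. Ctsa encodes cathepsin A, or protective protein, a carboxypeptidase that also stabilises neuraminidase 1 and beta-galactosidase in a complex. Ctsa ran from 10.82 to 10.98 (median 10.88) at 6 months, from 10.91 to 11.29 (median 11.09) at 12 months and from 11.06 to 11.41 (median 11.20) at 24 months, against 11.18 to 11.62 (median 11.28) in the switched group. The 24-month livers again did not overlap those at 6 months, and the difference was 0.34 (SE 0.073, adjusted p = 0.00840).

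Ctsz encodes cathepsin Z, a cysteine carboxypeptidase. Ctsz ran from 11.31 to 11.48 (median 11.42) at 6 months, from 11.29 to 11.71 (median 11.44) at 12 months and from 11.53 to 11.92 (median 11.73) at 24 months, against 11.47 to 11.89 (median 11.83) in the switched group. The ranges at 6 and 24 months were apart, and the rise was 0.30 (SE 0.080, adjusted p = 0.0288, limma). Ctsl encodes cathepsin L, a cysteine endopeptidase. Ctsl ran from 11.45 to 11.77 (median 11.63) at 6 months, from 11.67 to 11.91 (median 11.72) at 12 months and from 11.70 to 12.20 (median 11.88) at 24 months, against 11.61 to 11.95 (median 11.86) in the switched group. Here 6 of 7 lifelong livers at 24 months lay above the highest at 6 months, and the rise was 0.26 (SE 0.071, adjusted p = 0.0340). It was 0.19 (adjusted p = 0.0786) without the pair of arrays whose names carry an added suffix, 1 of which was the highest liver for Ctsl at 24 months.

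The other 4 proteases did not pass from 6 to 24 months. Ctsc encodes cathepsin C, a dipeptidyl peptidase that activates serine proteases of immune cells. Ctsc ran from 10.44 to 10.82 (median 10.55) at 6 months, from 10.12 to 10.78 (median 10.51) at 12 months and from 10.67 to 11.22 (median 10.79) at 24 months, against 10.58 to 11.63 (median 10.85) in the switched group. All neighbouring ranges overlapped, the difference from 6 to 24 months was 0.35 (SE 0.138, adjusted p = 0.154), and the test over the 4 groups gave an adjusted p of 0.0396. For Tpp1, a tripeptidyl peptidase, the difference was 0.19 (adjusted p = 0.145). Ctss, a cathepsin of antigen-presenting cells, differed by 0.17 (adjusted p = 0.691, 95% interval -0.22 to 0.56). Ctsh, an aminopeptidase cathepsin, differed by -0.07 (adjusted p = 0.612, 95% interval -0.19 to 0.06).

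Of the 8 enzymes of sugar chains, 2 rose from 6 to 24 months and all 8 differences lay above 0. Neu1 encodes neuraminidase 1, which removes sialic acid from glycoproteins and glycolipids. Neu1 ran from 6.98 to 7.34 (median 7.16) at 6 months, from 7.19 to 8.02 (median 7.63) at 12 months and from 7.52 to 7.82 (median 7.60) at 24 months, against 7.34 to 7.77 (median 7.60) in the switched group. Levels at 12 months were the most scattered, and those at 24 months were apart from those at 6 months, with a rise of 0.47 (SE 0.099, adjusted p = 0.00686, limma). Gaa encodes acid alpha-glucosidase, the lysosomal enzyme that degrades glycogen. Gaa ran from 9.39 to 9.63 (median 9.53) at 6 months, from 9.51 to 9.89 (median 9.68) at 12 months and from 9.71 to 9.93 (median 9.82) at 24 months, against 9.65 to 10.01 (median 9.76) in the switched group. The 24-month livers lay above every 6-month liver in both diet histories, and the lifelong rise was 0.29 (SE 0.067, adjusted p = 0.0138).

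Hexa and Gla did not pass from 6 to 24 months but passed in the test over the 4 groups, at adjusted p of 0.00245 and 0.0145. Hexa encodes the alpha subunit of beta-hexosaminidase A, which degrades ganglioside. Hexa ran from 8.46 to 8.73 (median 8.53) at 6 months, from 8.22 to 8.82 (median 8.57) at 12 months and from 8.33 to 9.37 (median 8.93) at 24 months, against 8.76 to 9.64 (median 9.26) in the switched group. Every switched liver lay above every 6-month liver, while lifelong livers at 24 months spread from below the 6-month range to well above it; the lifelong difference was 0.37 (SE 0.140, adjusted p = 0.124). Gla encodes alpha-galactosidase A, which removes terminal galactose from glycolipids, and its promoter above held the longer palindrome at both of its matches. Gla ran from 6.64 to 7.07 (median 6.83) at 6 months, from 6.74 to 7.11 (median 6.89) at 12 months and from 6.88 to 7.22 (median 7.14) at 24 months, against 7.04 to 7.44 (median 7.12) in the switched group. The groups overlapped, with a lifelong difference of 0.26 (SE 0.085, adjusted p = 0.0791). Gusb, Glb1, Man2b1 and Naglu, which remove glucuronate, galactose, mannose and N-acetylglucosamine, differed by 0.15 to 0.26 with adjusted p from 0.211 to 0.466.

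Of the 5 enzymes of lipids, 3 rose from 6 to 24 months, and Pla2g15 had the largest difference of the 33 genes. Pla2g15 encodes lysosomal phospholipase A2, which cleaves fatty acids from phospholipids. Pla2g15 ran from 7.44 to 7.95 (median 7.74) at 6 months, from 7.74 to 8.13 (median 7.88) at 12 months and from 8.17 to 8.60 (median 8.35) at 24 months, against 8.18 to 8.79 (median 8.31) in the switched group. Livers at 24 months of both diet histories lay above every liver at 6 and at 12 months, and the lifelong rise from 6 months was 0.67 (SE 0.097, adjusted p = 0.00048, limma). Smpd1 encodes acid sphingomyelinase, which converts sphingomyelin to ceramide. Smpd1 ran from 9.32 to 9.73 (median 9.57) at 6 months, from 9.50 to 9.91 (median 9.75) at 12 months and from 9.77 to 9.94 (median 9.82) at 24 months, against 9.69 to 10.04 (median 9.90) in the switched group. Lifelong livers at 6 and 24 months were apart, and the rise was 0.26 (SE 0.067, adjusted p = 0.0237).

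Asah1 encodes acid ceramidase, which acts on the ceramide that sphingomyelinase releases. Asah1 ran from 8.69 to 9.18 (median 8.88) at 6 months, from 8.84 to 9.33 (median 8.99) at 12 months and from 8.93 to 9.60 (median 9.28) at 24 months, against 8.98 to 9.52 (median 9.40) in the switched group. The ranges overlapped, with 5 of 7 lifelong livers at 24 months above the highest at 6 months and a rise of 0.36 (SE 0.103, adjusted p = 0.0413, limma). Ppt1 encodes palmitoyl-protein thioesterase 1, which removes fatty acids from proteins. Ppt1 ran from 8.56 to 8.94 (median 8.78) at 6 months, from 8.73 to 9.03 (median 8.88) at 12 months and from 8.77 to 9.44 (median 8.94) at 24 months, against 8.95 to 9.43 (median 9.21) in the switched group. Only the switched livers lay wholly above the 6-month livers; the lifelong difference was 0.23 (SE 0.095, adjusted p = 0.164), and the test over the 4 groups gave an adjusted p of 0.0112. Lipa, the acid lipase of cholesteryl esters and triglycerides, differed by 0.21 (adjusted p = 0.261).

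Npc2 was the 1 soluble carrier of 3 that rose. It encodes the cholesterol-binding protein that hands cholesterol to the membrane protein NPC1 for export. Npc2 ran from 7.38 to 7.73 (median 7.63) at 6 months, from 7.61 to 7.76 (median 7.68) at 12 months and from 7.78 to 8.14 (median 7.99) at 24 months, against 7.83 to 8.27 (median 8.02) in the switched group. All 24-month livers lay above all younger livers, and the lifelong rise from 6 months was 0.38 (SE 0.073, adjusted p = 0.00368, limma). Psap encodes prosaposin, the precursor of the saposins that activate sphingolipid hydrolases. Psap ran from 11.28 to 11.59 (median 11.52) at 6 months, from 11.30 to 11.52 (median 11.43) at 12 months and from 11.44 to 11.74 (median 11.65) at 24 months, against 11.47 to 11.85 (median 11.63) in the switched group. The groups overlapped; the lifelong difference was 0.14 (SE 0.067, adjusted p = 0.253), and the test over the 4 groups gave an adjusted p of 0.0410. Grn, the precursor of granulins, differed by 0.09 (adjusted p = 0.761).

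Of the 8 membrane proteins, 1 rose. Lamp1 encodes a heavily glycosylated protein that lines the lysosomal membrane, and its promoter above held the most copies of CACGTG. Lamp1 ran from 11.35 to 11.51 (median 11.43) at 6 months, from 11.47 to 11.57 (median 11.49) at 12 months and from 11.50 to 11.78 (median 11.57) at 24 months, against 11.48 to 11.77 (median 11.61) in the switched group. Here 6 of 7 lifelong livers at 24 months exceeded the highest at 6 months, with a rise of 0.20 (SE 0.053, adjusted p = 0.0308, limma). For Lamp2, its close relative, the difference was -0.03 (adjusted p = 0.769, 95% interval -0.13 to 0.06). Npc1, the cholesterol exporter, differed by 0.17 (adjusted p = 0.292) and Laptm5, a membrane protein of blood cells, by 0.46 (adjusted p = 0.397). Mcoln1, a calcium channel whose promoter held the longer palindrome, differed by 0.10 (adjusted p = 0.472). Scarb2, the receptor that delivers glucocerebrosidase, and Laptm4a differed by 0.07 and -0.07 (adjusted p = 0.636 and 0.492).

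Cd63 encodes a tetraspanin of late endosomes and lysosomes, and the test over the 4 groups gave it an adjusted p of 0.0234 in limma. Cd63 ran from 5.57 to 6.18 (median 5.90) at 6 months, from 5.63 to 6.35 (median 5.97) at 12 months and from 5.18 to 6.69 (median 6.03) at 24 months, against 5.76 to 7.24 (median 6.58) in the switched group. Cd63 was the dimmest of the 33 genes, at a mean of 6.13 over all livers. Its lowest lifelong liver at 24 months lay below every array's median, which ran from 5.23 to 5.31. The lifelong groups overlapped widely, at a difference of 0.07 from 6 to 24 months (SE 0.191, adjusted p = 0.891). The transcription factor gene Tfeb ran from 7.16 to 7.59 (median 7.41) at 6 months, from 7.18 to 7.67 (median 7.38) at 12 months and from 7.21 to 7.52 (median 7.48) at 24 months, against 7.14 to 7.50 (median 7.39) in the switched group. All 4 groups overlapped, with a lifelong difference of 0.06 (SE 0.077, adjusted p = 0.745, 95% interval -0.10 to 0.22) and an adjusted p of 0.833 over the 4 groups.

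**Figure D2:**
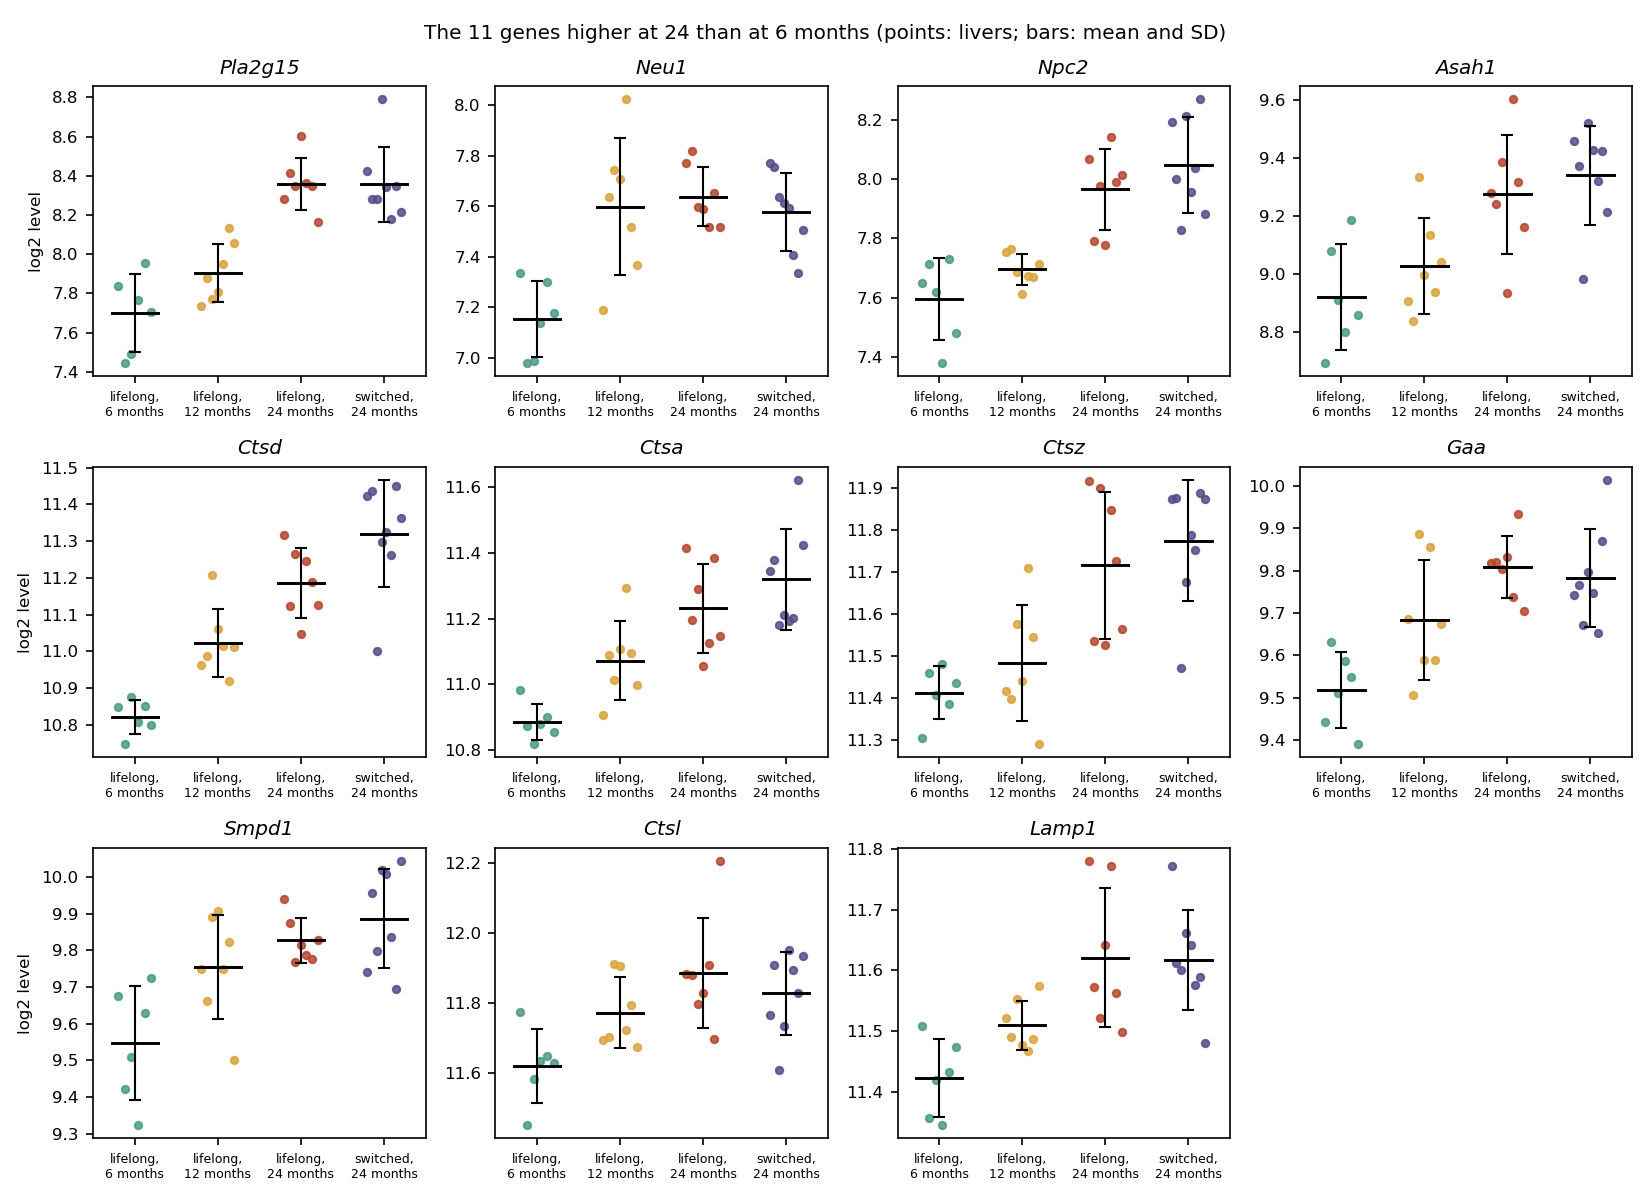
Log2 level of the 11 genes that rose from 6 to 24 months in each of the 28 livers, by group, with the mean and SD as bars. For 8 of the 11, every lifelong liver at 24 months lies above every liver at 6 months; Ctsl, Asah1 and Lamp1 overlap.

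The ranges at 6 and 24 months did not overlap for 8 of the 33 genes, all higher at 24 months, against 0.858% of all probe sets higher and 0.830% lower. Within each of the 3 array batches, all 11 rising genes had a higher mean at 24 than at 6 months. Batch G151 held 1 liver at each of these ages, and G152 held 1 at 6 months and 2 at 24 months. The 11 genes were called from these same livers, so the shared direction is not an independent test. In batch G150 alone, with 4 livers at each of these ages, Pla2g15 was the 1 gene that passed (adjusted p = 0.0165). Ctsd, Ctsa, Npc2, Neu1 and Pla2g15 passed in all 13 fits that left out 1 liver. Gaa was lost without 6-month replicate 6 (adjusted p = 0.0638) and Smpd1 without 6-month replicate 2, 3 or 4 (adjusted p from 0.0555 to 0.0724). Ctsl was lost without 6-month replicate 2, 3, 4 or 6 or 24-month replicate 5 or 7 (0.0661 to 0.0945), and Ctsz without 6-month replicate 3, 4 or 6 or 24-month replicate 1, 3 or 5 (0.0544 to 0.0731). Lamp1 was lost without 6-month replicate 2, 3, 4 or 6 or 24-month replicate 1 or 5 (0.0513 to 0.0753). Asah1 was kept in 3 fits, those without 6-month replicate 5 or 24-month replicate 4 or 7, and had an adjusted p of 0.0501 to 0.0962 in the others. The number of genes that passed fell to 6 without 6-month replicate 3, 4 or 6 and to 7 without 24-month replicate 5.

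From 6 to 12 months, Neu1 rose by 0.43 (SE 0.099, adjusted p = 0.0434, limma), 1 of 33 genes, where 0.591% of all probe sets passed. The 12-month livers overlapped those at 6 months. The rise was lost in 9 of the 13 fits that left out 1 liver, which were those without 6-month replicate 2, 3, 4 or 6 or 12-month replicate 2, 3, 4, 5 or 6 (adjusted p from 0.0599 to 0.147). It was also lost without the pair of arrays with a suffix (adjusted p = 0.0540). For Ctsd the ranges at 6 and 12 months were apart, at a difference of 0.20 (adjusted p = 0.139), the 1 gene of 33 with such ranges, against 0.574% of probe sets higher. The median difference over the 33 genes was 0.07, against 0.00 over all probe sets.

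From 12 to 24 months, none of the 33 genes passed in limma, where 0.0253% of all probe sets did, and 15 of the 33 had an unadjusted p under 0.05, all higher at 24 months, as had 11.1% of all probe sets in either direction. Pla2g15 differed by 0.47 (SE 0.094, adjusted p = 0.0615) and Npc2 by 0.28 (SE 0.071, adjusted p = 0.132). These were the 2 genes whose ranges at 12 and 24 months did not overlap, against 0.112% of all probe sets higher. Leaving out 24-month replicate 7 gave Pla2g15 an adjusted p of 0.0206. Leaving out 24-month replicate 4 passed Pla2g15, Npc2 and Ctss (0.0465, 0.0434 and 0.0449). The comparison shares its 24-month livers with that from 6 to 24 months. Of the 14 macrophage markers, 13 were higher at 24 than at 12 months, at a median difference of 0.68, and 10 had an unadjusted p under 0.05. A fit with the macrophage marker mean as a further term was chosen after the values were seen. There, 2 of the 33 genes had an unadjusted p under 0.05, as had 3041 of 35556 probe sets. The part of macrophages in these differences was not tested.

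At 24 months, the switched and lifelong groups did not differ past the threshold in any of the 33 genes in limma, where 0.0197% of all probe sets passed, and 5 of the 33 had an unadjusted p under 0.05, as had 7.58% of all probe sets. The median difference over the 33 was 0.03, with 21 differences above 0 and 12 below. Cd63 was 0.64 higher in the switched livers (SE 0.179, adjusted p = 0.331), Hexa 0.34 higher (SE 0.132, adjusted p = 0.531), Ppt1 0.22 higher (SE 0.089, adjusted p = 0.571) and Ctsd 0.14 higher (SE 0.061, adjusted p = 0.607). Mcoln1 differed by -0.18 (SE 0.063, adjusted p = 0.481). Ranges of the groups overlapped for all 33 genes, where 0.0197% of all probe sets had switched livers wholly above and 0.0169% wholly below the lifelong ones. The 95% interval was -0.20 to 0.18 for Pla2g15 and -0.11 to 0.10 for Lamp1, whose differences were -0.01 and -0.006. These intervals do not describe the other genes, among which the SE ran up to 0.260, for Laptm5.

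Against the lifelong livers at 6 months, the switched livers at 24 months had 17 of the 33 genes higher and none lower in limma, where 4.66% of all probe sets were higher and 5.39% lower. This comparison was added after the values were seen, differs in both age and diet history, and shares its 6-month livers with the comparison above. All 11 genes that rose in the lifelong mice were among the 17, and the other 6 were Lipa, Hexa, Gla, Tpp1, Ppt1 and Cd63. Ranges did not overlap for 10 genes, all higher in the switched livers, against 1.49% of all probe sets higher and 1.28% lower. All 5 enzymes of lipids passed, with 5 of 8 proteases, 4 of 8 enzymes of sugar chains, 2 of 8 membrane proteins and 1 of 3 soluble carriers. Hexa was 0.72 higher (SE 0.136, adjusted p = 0.00142), Cd63 0.71 higher (SE 0.184, adjusted p = 0.0142), Pla2g15 0.66 higher (SE 0.093, adjusted p = 8.66e-05) and Ctsd 0.50 higher (SE 0.062, adjusted p = 2.33e-05). Lipa was 0.37 higher (adjusted p = 0.0180), with no overlap of the ranges, and lost its call without 6-month replicate 6 (adjusted p = 0.0557), as did Cd63 (0.0527). Ctsl was 0.21 higher (adjusted p = 0.0458) and kept its call in 4 of 14 fits without 1 liver, those without 6-month replicate 1 or switched replicate 1, 3 or 4, with an adjusted p up to 0.124 in the others. The difference between the rise in switched and in lifelong livers is that between the groups at 24 months, given above. Markers of recruited and lipid-associated macrophages had 6 of 6 higher here, at a median difference of 0.80. The 6-month means of 4 of them lay below the array median. Macrophage markers had 2 of 14 higher and 1 lower, B cell markers 2 of 4 higher and stellate cell markers 2 of 6 higher. Hepatocyte markers had 1 of 9 lower, and no other marker list had a call. The part of these cells in the 17 differences was not tested.

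**Figure D3:**
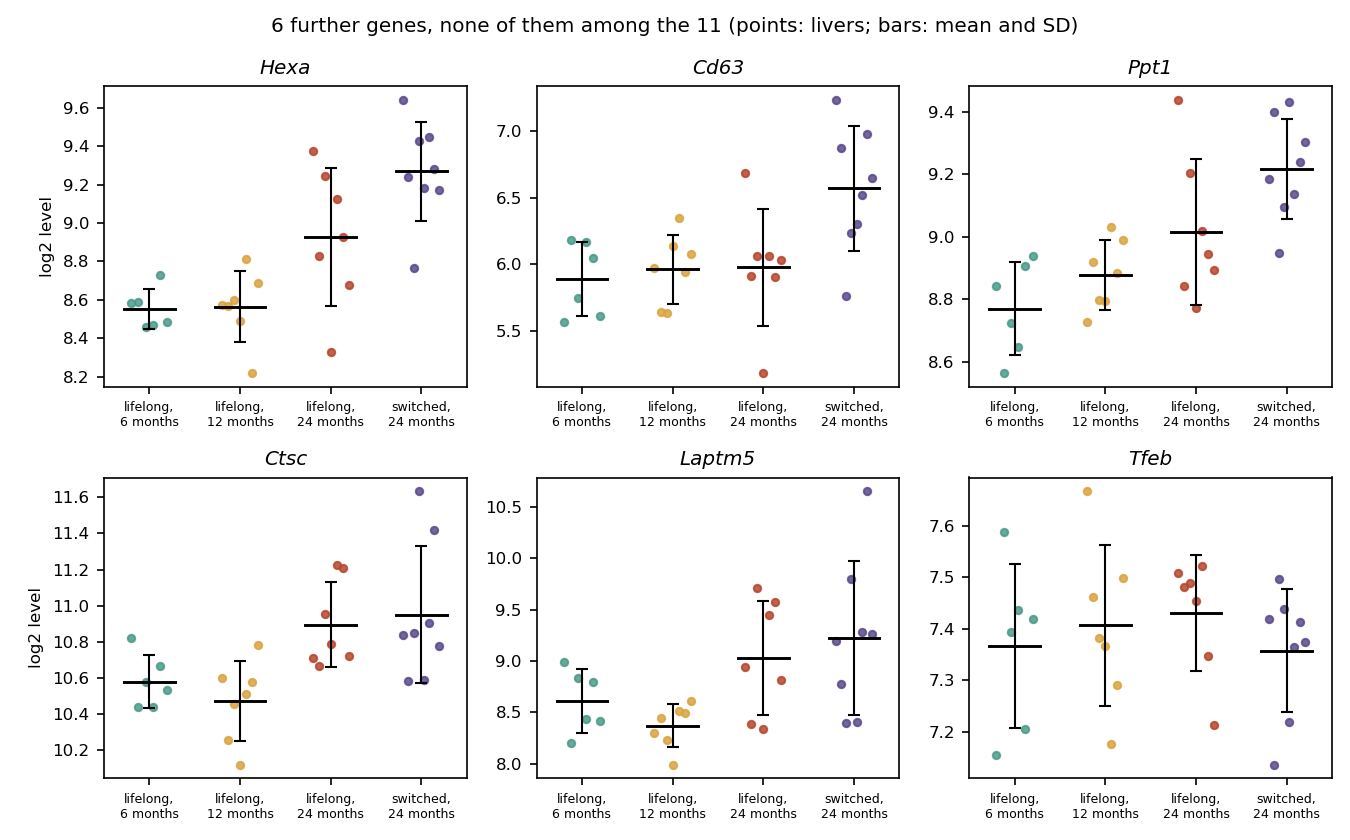
Log2 level of Hexa, Cd63, Ppt1, Ctsc, Laptm5 and Tfeb in each of the 28 livers, by group, with the mean and SD as bars. Every switched liver lies above the 6-month livers for Hexa and Ppt1; all 4 groups overlap for Tfeb.

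In the test over the 4 groups, 16 of the 33 genes passed in limma, where 8.07% of all probe sets and 16.8% of the 1-gene probe sets at least as bright as the dimmest of the 33 did. They were the 11 named above without Ctsl (adjusted p = 0.0680), with Hexa, Gla, Ppt1, Cd63, Ctsc and Psap. Psap passed in 9 of 28 fits without 1 liver, those without 6-month replicate 4, 12-month replicate 1, 24-month replicate 1, 2, 4 or 7, or switched replicate 2, 3 or 5, with an adjusted p up to 0.0871 in the others. Ctsc was lost in the fits without 6-month replicate 2, 3, 4, 5 or 6, 12-month replicate 1, 2, 3 or 4, 24-month replicate 1, 3, 5 or 6, or switched replicate 1 or 8 (up to 0.0797). Cd63 was lost without switched replicate 1, 2 or 7 (up to 0.0790), Lamp1 without 6-month replicate 2, 3, 4, 5 or 6 or switched replicate 4 (up to 0.0873), and Gaa without 6-month replicate 6 (0.0818). Averaged over the 33 genes, a liver's difference from the mean of all arrays ran from -0.19 to -0.10 (median -0.17) at 6 months, from -0.15 to -0.0007 (median -0.10) at 12 months and from -0.08 to 0.17 (median 0.13) at 24 months, against -0.05 to 0.29 (median 0.11) in the switched group. The lowest liver at 24 months thus lay above all livers at 6 months, and within the range at 12 months.

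Markers of macrophages moved with some of the 33 genes across livers. Over 28 livers, with group means removed, 7 genes correlated with the mean of 14 macrophage markers at a Benjamini-Hochberg adjusted p under 0.05 over 33 relations, all positively (permutation within groups, two-sided, 100000 draws). The correlation was not computed for other probe sets. The count of 7 therefore has no share of all probe sets beside it and does not mark these genes out from others. Laptm5 had Pearson's r 0.96 and Spearman's rho 0.92 (both p = 1e-05, the smallest the permutations can give; adjusted p = 0.00011 and 0.000165). Ctss had r 0.87 and rho 0.91, also at that smallest p. For Man2b1, r was 0.79 and rho 0.75 (permutation p = 1e-05 and 4e-05), and for Ctsc r was 0.78 and rho 0.79 (permutation p = 7e-05 and 4e-05). Npc2 had r 0.70 and rho 0.67 (permutation p = 0.00038 and 0.00114), Glb1 r 0.66 and rho 0.70 (permutation p = 0.00029 and 0.00019), and Psap r 0.65 and rho 0.58 (permutation p = 0.00088 and 0.00565). The highest adjusted p among the 7 was 0.00415 for r and 0.0266 for rho, both for Psap.

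Without the pair of livers farthest from the median marker level, switched replicate 7 and lifelong 24-month replicate 3, r for the 7 genes was 0.92 for Laptm5, 0.88 for Ctss, 0.76 for Man2b1, 0.79 for Ctsc, 0.70 for Npc2, 0.74 for Glb1 and 0.59 for Psap. Within the 18 livers of batch G150, r was 0.98, 0.88, 0.92, 0.76, 0.77, 0.72 and 0.77 in the same order. The other batches hold 5 livers each, too few for a correlation. Among the 11 genes that rose from 6 to 24 months, Npc2 was the 1 that passed. Ctsa had r 0.49 (permutation p = 0.0289, adjusted 0.0866), which was 0.71 within batch G150 and 0.23 without the pair of farthest livers. Pla2g15 had r 0.20 (permutation p = 0.339, adjusted 0.466), Neu1 -0.18 (permutation p = 0.30, adjusted 0.443) and Ctsd 0.36 (permutation p = 0.143, adjusted 0.276). 

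The log2 of the summed macrophage marker level ran from 12.65 to 13.14 at 6 months, from 12.27 to 12.80 at 12 months and from 12.52 to 13.89 at 24 months, against 12.73 to 14.53 in the switched group, so all groups overlapped. Macrophage markers had 1 of 14 higher from 6 to 24 months, the lysozyme gene Lyz2 (1.00, adjusted p = 0.0334, limma), with a median difference of 0.37. Markers of recruited and lipid-associated macrophages had 3 of 6 higher, Itgax, Gpnmb and Cd9, with a median of 0.64, with the mean of Itgax below the array median at 6 and 12 months and that of Gpnmb below it in all 3 lifelong groups. B cell markers had 3 of 4 higher, with a median of 0.69, and 1 of the 3 had means below the array median in all 4 groups. Whether the B cell calls held without 1 liver is not given here. Among hepatocyte markers, 1 of 9, Tat, fell, and the median difference was -0.08. The calls of Lyz2, Itgax, Gpnmb, Cd9 and Tat were each lost without 24-month replicate 1, 3 or 5 or 6-month replicate 4, and each was also lost without at least 1 further liver, with adjusted p up to 0.124. None of the markers of T and NK cells (7), neutrophils (4), endothelial cells (6), stellate cells (6) or cholangiocytes (4) passed in limma, with an unadjusted p under 0.05 for 0, 1, 0, 2 and 1 of them, where 19.2% of all probe sets had one. The part of recruited macrophages and B cells in the rises was not tested.

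**Figure D4:**
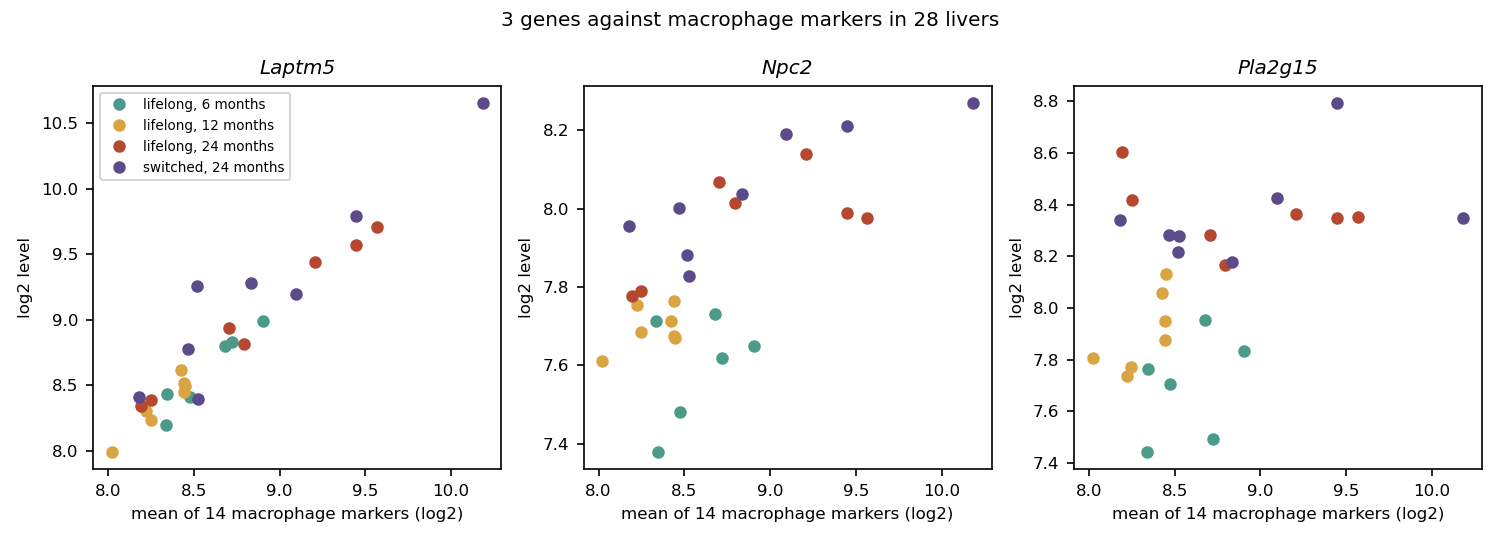
Log2 level of Laptm5, Npc2 and Pla2g15 against the mean log2 level of 14 macrophage markers in each of the 28 livers, coloured by group. Laptm5 follows the marker level (r 0.96 with group means removed), while Pla2g15 (r 0.20) is higher in every 24-month liver than in every younger one.

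With the macrophage marker mean as a further term, added after the values were seen, 9 of the 11 rises kept their call. Pla2g15, Neu1, Npc2, Ctsd and Ctsa were among them; with the term the rise in Ctsd was 0.33 (adjusted p = 0.00522, limma) and that in Ctsa 0.28 (adjusted p = 0.0133). Ctsz had 0.26 (adjusted p = 0.0620) and Asah1 0.31 (adjusted p = 0.0864). In the test over the 4 groups the term took the number of genes from 16 to 12, with Ctsc, Psap, Lamp1, Asah1 and Gla lost (adjusted p = 0.304, 0.311, 0.0822, 0.0793 and 0.0535) and Lipa gained (0.0423). Over all 35556 probe sets, the term took the calls in that test from 2871 to 2052. From 6 to 24 months it took them from 1681 to 1506. The marker mean is itself measured in the same livers, and it moved with group. It was taken over the 14 macrophage and Kupffer cell markers and left out those of recruited and lipid-associated macrophages. The part of macrophages in the rises was not tested.

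**Figure D5:**
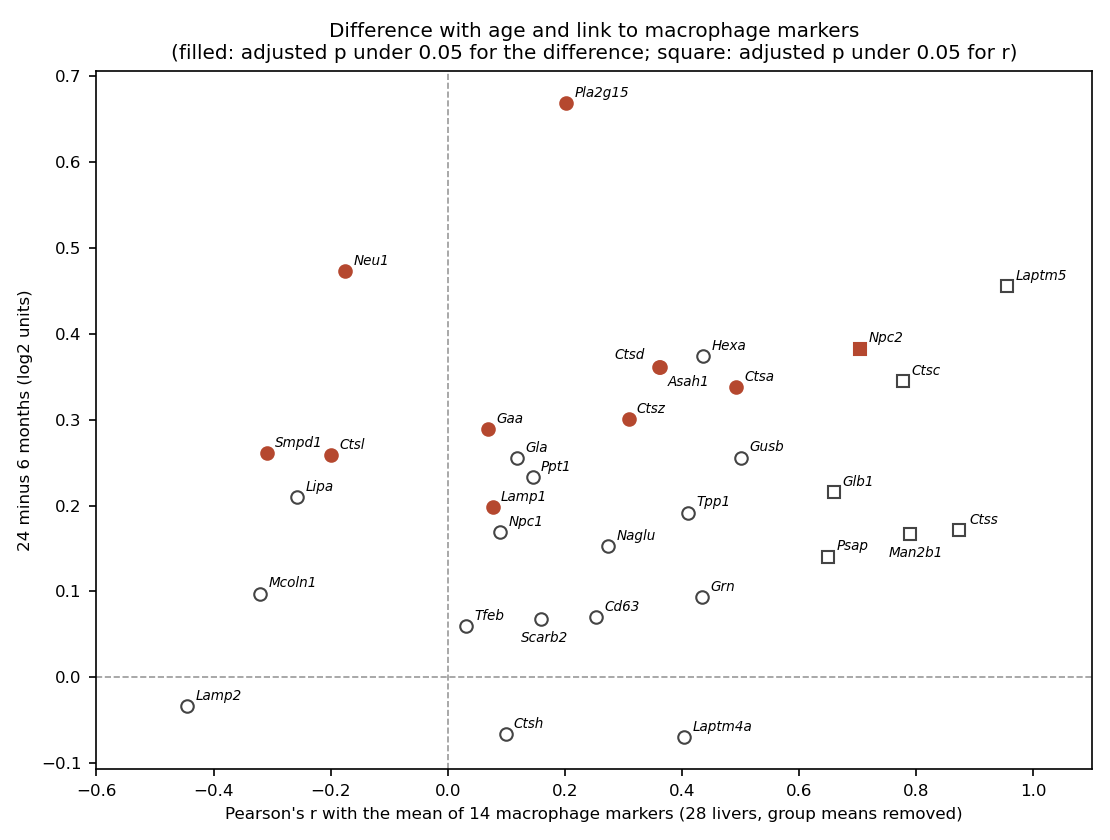
Difference from 6 to 24 months (log2 units) against Pearson's r with the macrophage marker mean over 28 livers, for the 33 genes. Filled points passed for the difference and squares passed for r; Npc2 is the 1 filled square, and Laptm5 lies farthest to the right.

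The other lysosomal genes, in lists chosen to cover the rest of the organelle, gave the following from 6 to 24 months. Among all probe sets, 2.10% were higher and 2.63% lower in that comparison. Of 19 other enzymes and cofactors, 3 rose and none fell, at a median difference of 0.16. They were Galc, which removes galactose from ceramide (0.47, SE 0.104, adjusted p = 0.0101), Scpep1, a serine carboxypeptidase (0.46, SE 0.105, adjusted p = 0.0126), and Acp5, a phosphatase of macrophages and osteoclasts (0.35, SE 0.095, adjusted p = 0.0317). Scpep1 was lost without 6-month replicate 6 (adjusted p = 0.0546), and Acp5 without 6-month replicate 2, 3 or 4 or 24-month replicate 1, 3, 5 or 6 (0.0553 to 0.0804). Aga, aspartylglucosaminidase, differed by 0.25 (adjusted p = 0.0899) and passed over the 4 groups (adjusted p = 0.00546).

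Of 15 subunits of the proton pump that acidifies the lysosome, 1 rose and 1 fell, against the same 2.10% and 2.63% of all probe sets. Atp6v0d2 encodes an isoform of the pump's d subunit with a restricted tissue distribution. Its mean level was 4.77 ± 0.87 (SD, n = 6) at 6 months, 5.79 ± 0.54 (n = 7) at 12 months, 6.33 ± 0.53 (n = 7) at 24 months and 6.83 ± 0.47 (n = 8) in the switched group. Atp6v0d2 had a fitted lifelong difference of 1.51 (SE 0.316, adjusted p = 0.00699, limma). Its mean at 6 months lay below every array's median, which ran from 5.23 to 5.31, so the size of that difference is given as fitted and not as a measured fold. Atp6v1d fell by 0.31 (SE 0.060, adjusted p = 0.00467), and Atp6v1a, a catalytic subunit, differed by 0.22 (adjusted p = 0.102) while passing over the 4 groups (adjusted p = 0.00291). The median difference over the 15 subunits was 0.07.

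None of 12 genes of sorting to the lysosome passed from 6 to 24 months in limma, and 3 had an unadjusted p under 0.05, where 19.2% of all probe sets had one. Over the 4 groups, Sort1, a sorting receptor, passed (adjusted p = 0.0205), with means of 7.16 ± 0.24 (SD, n = 6) at 6 months and 6.31 ± 0.41 (SD, n = 8) in the switched group, as did the retromer subunit gene Vps35 (adjusted p = 0.0227) and Gnptab, whose product makes the mannose 6-phosphate tag (adjusted p = 0.0289). Sort1 was lost without switched replicate 8 (0.0502), Vps35 without 6-month replicate 3 or switched replicate 1 (up to 0.0581), and Gnptab without 6-month replicate 3, 5 or 6 or switched replicate 1, 2 or 6 (up to 0.0753). Of 16 regulators, Zkscan3, a repressor of lysosomal genes, fell by 0.23 (SE 0.064, adjusted p = 0.0344), where 2.63% of all probe sets fell. Its call was lost without 6-month replicate 2, 4 or 6 or 24-month replicate 2, 3 or 5 (up to 0.0941). Rragd, a GTPase of nutrient sensing, passed over the 4 groups (adjusted p = 0.0323) but not without 6-month replicate 3, 12-month replicate 1, 4 or 7, or switched replicate 1, 2 or 5 (up to 0.113), and Lamtor1, part of its anchor on the lysosome, did not (adjusted p = 0.0523). None of 13 autophagy genes passed from 6 to 24 months in limma, and 4 had an unadjusted p under 0.05, against the same 19.2%. Over the 4 groups Gabarapl1, whose product is conjugated to autophagosome membranes, passed (adjusted p = 0.00766), and Ulk1 and Atg7 did not (adjusted p = 0.0577 and 0.0609). In switched livers against those at 6 months, 7 of the 19 other enzymes and cofactors were higher and 1 lower. Pump subunits had 3 of 15 higher, and sorting genes 3 of 12 higher and 1 lower. Regulators had 1 of 16 higher and autophagy genes 3 of 13 higher. Among all probe sets, 4.66% were higher and 5.39% lower there.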

How the data were processed

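Liver RNA with an integrity number above 8.0 was amplified with a whole-transcript kit, biotin labelled and hybridised to single-colour arrays, 1 for each of 28 mice. The submitters' processing notes name RMA, with no version and no word on whether 1 run covered every array. The deposited log2 values were used as the authors left them. Of 35556 probe sets, 21218 named 1 gene, 1881 several and 12457 none. No probe set was filtered out.

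A single linear model of all arrays was fitted with limma 3.58.1 under R 4.3.3. Its terms were group and batch, the latter being G150, G151 or G152 as read from array names. The 4 planned comparisons, 1 added comparison and a moderated F test over the 4 groups were two-sided, with Benjamini-Hochberg adjustment over all probe sets and a threshold of 0.05. Genes described in full passed in a planned comparison or the F test, with Tfeb as the sole member of its role; up to 3 genes of each other lysosomal list were named by smallest F-test p, and further genes that passed or that a count singles out were named after their values were seen. The members and lists were chosen with earlier results of these data known. Correlations used Python 3.11.15 with scipy 1.17.1. The fitting script was tested on simulated data. The number of arrays limits the precision.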

Additional observations from a re-analysis of the deposited data

Results flagged for a closer look

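In 72 groups of 6 to 8 livers (18 genes in 4 groups), 3 held a liver whose gap to the nearest one was a large share of the group's range by Dixon's criterion, and chance gives about 1 in 20 groups. Ctsd was lowest at 11.002 in switched replicate 3, where the next liver was 11.26. Ctsl was highest at 12.20 in lifelong 24-month replicate 7, where the next was 11.91; this array is 1 of the pair whose names carry a suffix, and without this liver the rise in Ctsl had an adjusted p of 0.0661 (limma). Pla2g15 was highest at 8.79 in switched replicate 4, where the next was 8.43.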

How the results depend on the processing

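For 54 genes named in the text, 9396 values under other settings gave 0 reversals of a called direction, 338 lost calls, 86 gained calls and 201 sign changes of values that did not pass. Counts of the 33 genes kept within 1.5 times elsewhere. From 6 to 12 months the number of the 33 genes was 0 with batch G150 alone, with only the groups compared, without the pair of arrays with a suffix and with the macrophage marker mean as a term; probe sets numbered 108 with no batch term, 0 in G150, 22 with only the groups compared, 518 with array weights, 122 with the replicate block, 332 over 1-gene probe sets and 46 without the pair. From 6 to 24 months, G150 alone gave 1 gene and 194 probe sets, and only the groups compared gave 6 and 736. From 12 to 24 months, 1 gene passed with the lowest 30% of probe sets left out, with array weights, over 1-gene probe sets and without the pair, with 33, 23, 31 and 39 probe sets; there were 3 with no batch term, 0 in G150, 1 with only the groups compared, 0 with the replicate block and 0 with the macrophage term. Switched against lifelong at 24 months, probe sets numbered 2 in G150, 0 with only the groups compared, 2 with array weights, 2 with the replicate block and 1 without the pair. Switched against 6 months, G150 gave 8 genes and 931 probe sets, and only the groups compared 2332 probe sets. The F test gave 2 genes in G150. The smaller fits have fewer livers, and for the other changes the cause was not tested.

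Leaving out 1 liver gave 0 to 1 genes and 7 to 546 probe sets from 6 to 12 months, 6 to 12 and 831 to 2370 from 6 to 24 months, 0 to 3 and 1 to 124 from 12 to 24 months, 0 to 0 and 1 to 36 for switched against lifelong, 14 to 18 and 2475 to 3849 for switched against 6 months, and 12 to 19 genes in the F test. The replicate numbers do not pair the mice: deviations of same-numbered livers correlated at -0.13 to 0.15 over 39 pairs, 1 of them over 0.1. With the replicate number as a block, 8 genes passed from 6 to 24 months, 12 in the F test, 1 from 6 to 12 months and 14 for switched against 6 months. From 6 to 24 months, repeated quantile normalization changed 747 probe sets higher and 934 lower to 852 and 812. The suffix and macrophage settings were chosen after the values were seen. Averaging probe sets of a gene could not change the 33 genes, which have 1 each.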
